A study of Mus musculus with 8 samples.

Results

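The genes of the proteasome were followed in mouse macrophages treated with LPS (bacterial lipopolysaccharide, which activates Toll-like receptor signalling) and with IL-10, an anti-inflammatory cytokine. Members were all genes of the deposited table whose symbol starts with Psma, Psmb, Psmc, Psmd, Psme, Psmf or Psmg and goes on with a number, without Psmb8 and Psmb9. There were 47 of them among 11415 genes. The cells were bone marrow-derived macrophages grown in M-CSF from 129S6/SvEvTac mice of genotype IL10-/-RAG2-/-, so every group, the untreated one included, lacked functional Il10 and Rag2 genes. One group received LPS at 1 ng/mL for 195 min with IL-10 at 1 ng/mL for the same 195 min (IL-10 throughout). Another received LPS for 195 min with IL-10 only in the last 30 min (late IL-10), whose IL-10 dose is not restated in the labels. The remaining cells were given LPS alone at 1 ng/mL for 195 min, or were left untreated. Each group had 2 libraries of ribosome-depleted total RNA, and per the labels the study used 2 independent macrophage pools.

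The proteasome is the main protease of the cytosol and nucleus and degrades proteins tagged with ubiquitin. Its barrel-shaped core has outer rings of alpha subunits, which gate the channel, and inner rings of beta subunits, of which Psmb5, Psmb6 and Psmb7 carry the active sites. The regulatory particle on its ends holds ATPases, which unfold and feed in the substrate, and non-ATPase subunits, which bind and remove ubiquitin. In macrophages exposed to interferon the active subunits are exchanged for inducible ones, Psmb8, Psmb9 and Psmb10, and the activator cap PA28, made of Psme1 and Psme2, can replace the regulatory particle. The resulting immunoproteasome is known for producing peptides for presentation on MHC class I. By these roles the members fell into 7 alpha subunits, 7 constitutive beta subunits, 6 ATPases, 11 non-ATPase subunits, 3 interferon-inducible genes (Psmb10, Psme1 and Psme2), 3 other activators or inhibitors (Psme3, Psme4 and Psmf1), 3 assembly chaperones of the regulatory particle (Psmd5, Psmd9 and Psmd10) and 4 of the core (Psmg1 to Psmg4). Psma8, an alpha subunit known from the testis, stood alone. The symbol rule also took in Psmc3ip, which encodes a meiotic recombination factor and no proteasome subunit, and Psme2b, an intronless copy of Psme2.

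For each group the table gave a mature mRNA value and a pre-mRNA value, which stands for transcripts not yet spliced. Each was the mean of 2 libraries' scaled reads, and both libraries' reads could be worked out from it exactly. The library with the larger scaling factor is called A and the other B, separately for each group and measure, so that A in one group need not come from the same pool as A in another. Summed over all genes, the mRNA measure came to 21412968 to 53172133 reads per library and the pre-mRNA measure to 8661271 to 31508394. Among the members, counts per library ran from 10 (Psme2) to 17204 (Psme2b) in the mRNA measure. All 9 macrophage markers listed were in the table, with summed mRNA levels of 508748 to 879139 normalised reads per library. Of the markers of other cells, 6 of 8 neutrophil genes were present (50.9 to 1412 reads summed), 4 of 5 dendritic cell genes (1343 to 17789), 2 of 5 T and NK cell genes (395 to 5494), and 2 of 4 stromal and endothelial genes (12.4 to 217). No B cell or mast cell marker was in the table. No gene of the table has fewer than 11 mRNA reads in an LPS library. A marker that was lower with LPS would therefore be missing, whatever its level in untreated cells. The macrophage, neutrophil, dendritic and stromal sums were higher in both LPS libraries than in both untreated ones and the T and NK cell sum was lower. Their part in the results was not tested. Fewer cells of a type and less RNA per cell cannot be told apart in these bulk samples.

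In every LPS-treated group the 2 libraries differed widely in interferon-stimulated genes. All 26 genes of an interferon list were higher in the same library of the pair, by a median log2 difference in mRNA of 1.38 for IL-10 throughout, 1.16 for late IL-10 and 1.15 for LPS. Of the inducible genes, Psme1 mRNA was higher in the interferon-high library each time, by 0.66 on the log2 scale with IL-10 throughout, 0.75 with late IL-10 and 0.82 with LPS. Psmb10 mRNA differed by -0.0432, 0.22 and 0.37 in that order of groups, and Psme2 mRNA by -0.55, -0.25 and 0.0141, so that these genes ran against the split in at least 1 group. The median of the 31 constitutive core and regulatory subunits differed between the mRNA libraries of these groups by at most 0.0574. Single subunits differed more, and in both directions. Psma3 mRNA was higher in the interferon-high library each time, with 254.7 against 178.5 normalised reads with IL-10 throughout, 435.5 against 258.3 with late IL-10 and 434.2 against 257.6 with LPS. Psmb5 mRNA was lower there each time, with 428 against 801 normalised reads with IL-10 throughout, 388 against 778 with late IL-10 and 409 against 827 with LPS. With 2 libraries a group, results that rest on these genes are given with and without each library.

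With LPS, the 3 inducible genes rose in both measures, and with them many of the constitutive subunits. Of 47 members tested in the mRNA measure, 22 rose and 0 fell at an adjusted p under 0.05 (limma, Benjamini-Hochberg over all genes), where 19.2% of all genes rose and 16.5% fell. Unadjusted, 28 members were higher and 0 lower at p under 0.05, and limma-voom also found 22 higher and 0 lower. The median change of the members was 0.755 on the log2 scale, beside 0.0075 over all genes. In the pre-mRNA measure 25 of 46 members rose and 2 fell, where 22.3% of all genes rose and 21.7% fell. The median there was 0.818, beside 0.001 over all genes. Scaled to total reads, the members' median was 0.007 in mRNA and -0.0982 in pre-mRNA, beside -0.74 and -0.90 over all genes. Both LPS libraries lay above both untreated libraries for 35 of 47 members in mRNA (34.7% of all genes) and for 36 of 46 in pre-mRNA (36.2%). The reverse held for 4 members in mRNA (34.2% of all genes) and 3 in pre-mRNA (36.5%). Psme2b had no pre-mRNA read in any library and is the member missing from that measure.

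**Figure D1:**
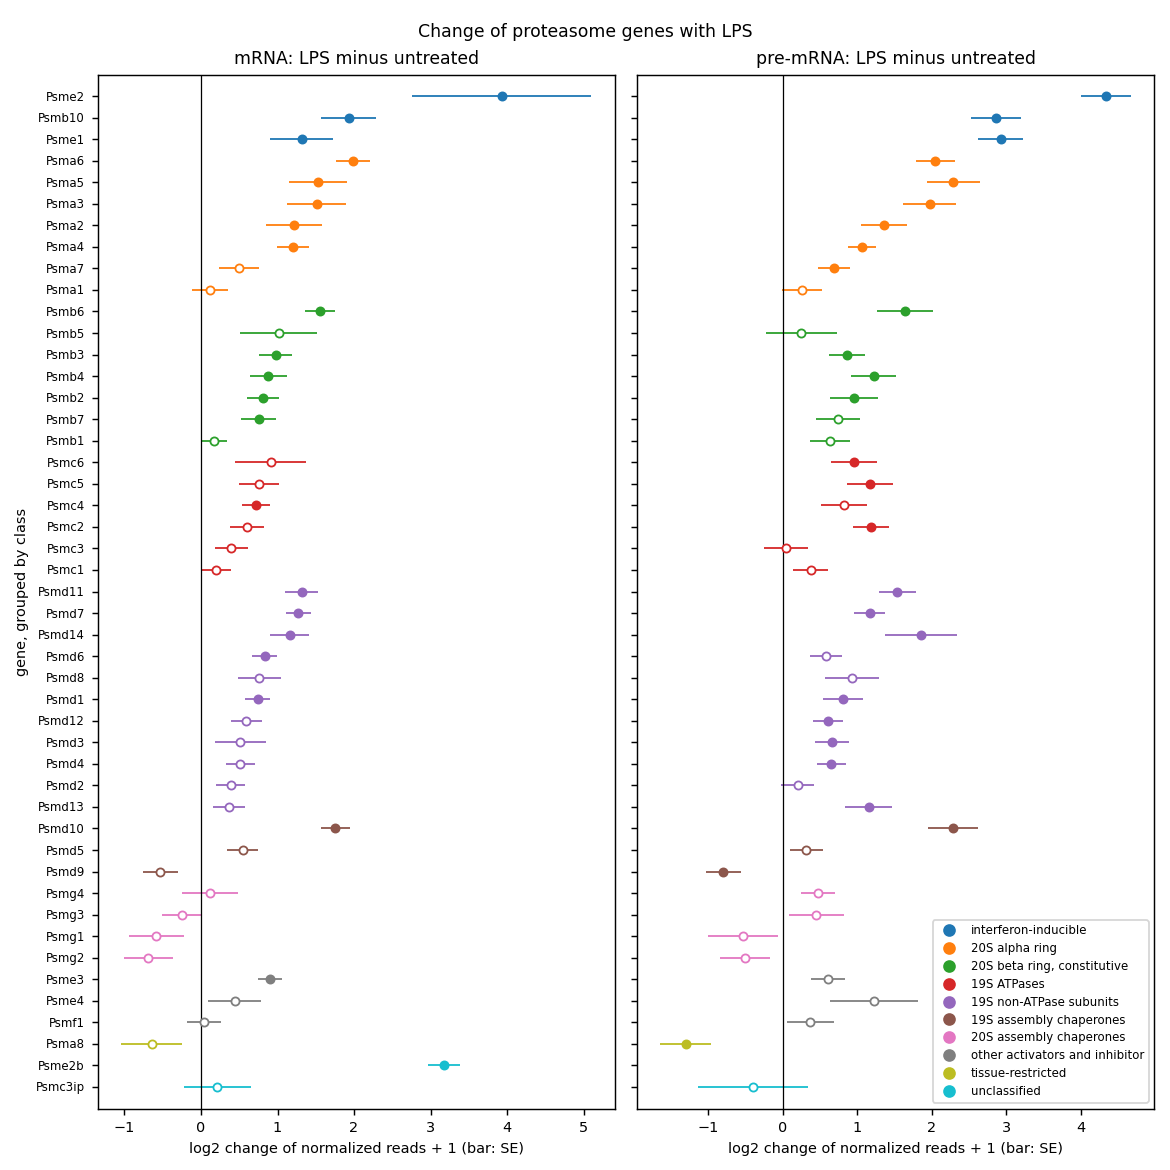
Log2 change of each member, LPS minus untreated, in mRNA (left) and pre-mRNA (right), with its standard error; filled points passed an adjusted p under 0.05. The inducible genes at the top reach 3.93 in mRNA and 4.33 in pre-mRNA, most alpha, beta and regulatory particle genes lie between 0 and 2, and the core assembly chaperones lie on both sides of 0.

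Unless total-read scaling is named, values are relative to the median gene. LPS libraries scaled to total reads gave a median gene shifted by -0.75 in mRNA and -0.92 in pre-mRNA, and then 6 members rose and 6 fell in mRNA, and 9 rose and 3 fell in pre-mRNA. Those that fell in mRNA were Psma8, Psmd9, Psmf1, Psmg1, Psmg2 and Psmg3, and those that fell in pre-mRNA were Psma8, Psmd9 and Psmg2. The genes that rose under both scalings in mRNA were Psma6, Psmb10, Psmb6, Psmd10, Psmd11 and Psme2b. Fewer libraries also made fewer calls. The mRNA count of 22 became 13 when untreated library A was left out and 9 when LPS library B was. The pre-mRNA count of 25 became 16, 14 and 15 when untreated library A, untreated library B and LPS library A were left out in turn. In mRNA, 9 of the 22 calls held whichever of the 4 libraries was left out, and in pre-mRNA 11 of 27 did. Those 9 were Psma4, Psma6, Psmb6, Psmb10, Psmd7, Psmd10, Psmd11, Psme2b and Psme3. The 11 in pre-mRNA were Psma3, Psma4, Psma5, Psma6, Psmb10, Psmc2, Psmd7, Psmd10, Psmd11, Psme1 and Psme2.

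Psmb10, the inducible beta subunit that takes the place of Psmb7, lies at chr8:105935735-105938444 on the minus strand of mm10. It had 3932 and 5075 normalised mRNA reads with LPS, against 790 and 1739 in untreated cells. The groups did not overlap, although the untreated libraries differed more in proportion than the LPS ones. The log2 change was 1.93 ± 0.36 (SE; adjusted p = 0.0074). In pre-mRNA it had 540.5 and 526 reads with LPS, against 51.7 and 102 in untreated cells, a log2 change of 2.86 ± 0.33 (adjusted p = 0.00055). Both calls held without any 1 library and under total-read scaling.

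Psme1 encodes the alpha subunit of PA28 and lies at chr14:55578123-55581529 on the plus strand. Its mRNA stood at 1997 and 3534 normalised reads with LPS and at 876 and 1301 in untreated cells. The lower LPS library was the one with the lower interferon genes, yet it remained above both untreated libraries. The log2 change of 1.31 ± 0.41 (adjusted p = 0.044) was not past the threshold when untreated library A (1.03, adjusted p = 0.19), untreated library B (1.60, adjusted p = 0.079) or LPS library B (0.90, adjusted p = 0.22) was left out, or with total-read scaling (0.57, adjusted p = 0.16). Its pre-mRNA separated the groups more widely, with 615 and 575 reads with LPS against 59.7 and 100.5 in untreated cells. That log2 change was 2.92 ± 0.30 (adjusted p = 0.00034) and held under every alternative run.

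Psme2, the beta subunit of PA28, lies on the opposite strand 5911 bases from Psme1, at chr14:55587441-55591113, and Irf9 lies 12457 bases further on. Psme2 pre-mRNA rose more than that of any other member, with 1718 and 1369 normalised reads with LPS against 90.0 and 62.7 in untreated cells. The log2 change was 4.33 ± 0.33 (adjusted p = 0.00011) and held under every alternative run. Its mRNA is less certain, because reads can be shared with Psme2b.

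**Figure D2:**
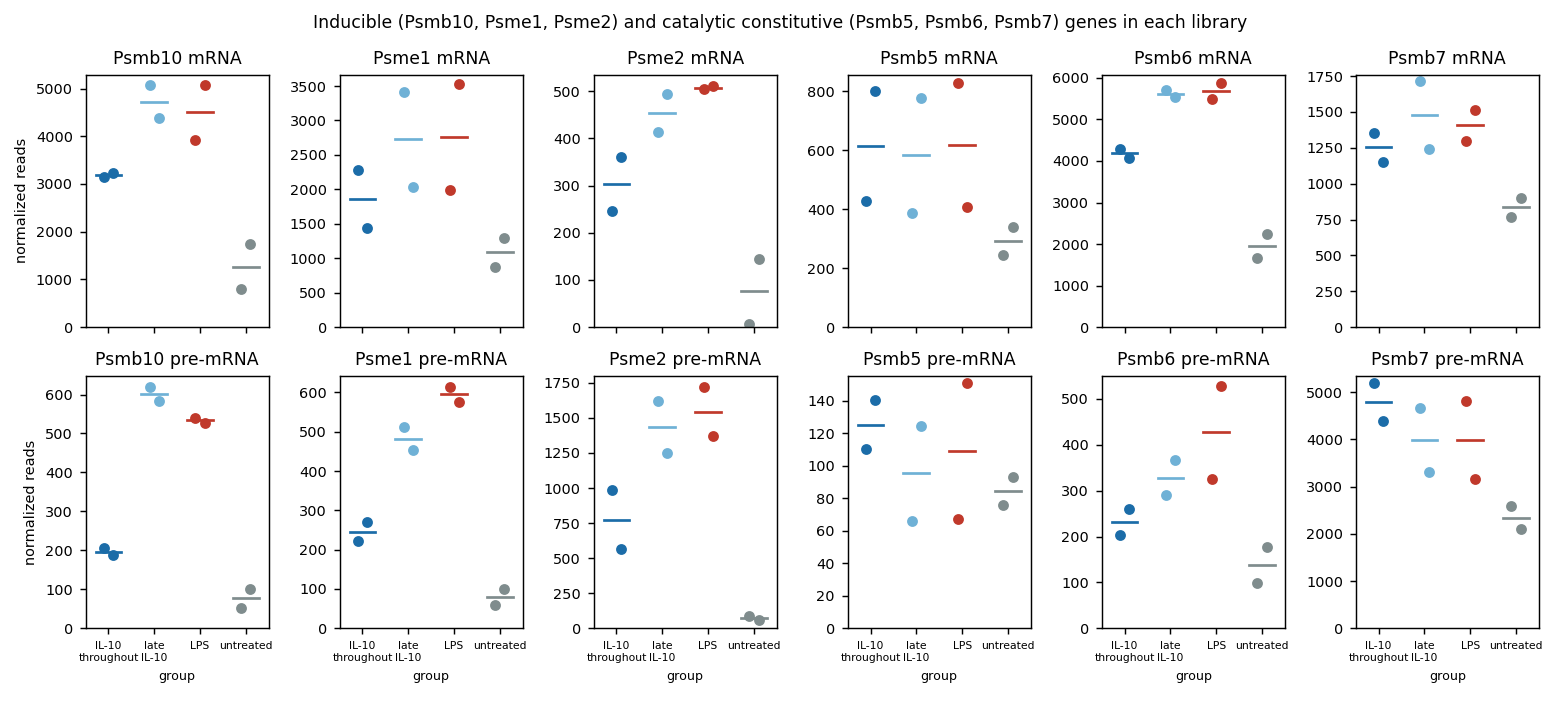
Normalised reads of the inducible genes Psmb10, Psme1 and Psme2 and of the catalytic constitutive genes Psmb5, Psmb6 and Psmb7, in mRNA (top) and pre-mRNA (bottom); each point is a library and each bar the mean of 2. Pre-mRNA of Psmb10 and Psme1 is lower in both libraries with IL-10 throughout (189 to 271) than in the late IL-10 and LPS libraries (453 to 620), and lowest in untreated cells.

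The promoters of the 3 inducible genes are shown because these genes moved together with LPS. RefSeq (GRCm38.p6, the mm10 sequence) gives 250 bases before and 50 bases after the transcription start, printed here in the direction of transcription. Capitals mark the letters of the interferon-stimulated response element (GAAA, any 2 bases and GAAA again), found on either strand. Psme2 has 2 annotated starts, of which the upstream one is printed.
Psme1, chr14:55578244-55578543, plus strand: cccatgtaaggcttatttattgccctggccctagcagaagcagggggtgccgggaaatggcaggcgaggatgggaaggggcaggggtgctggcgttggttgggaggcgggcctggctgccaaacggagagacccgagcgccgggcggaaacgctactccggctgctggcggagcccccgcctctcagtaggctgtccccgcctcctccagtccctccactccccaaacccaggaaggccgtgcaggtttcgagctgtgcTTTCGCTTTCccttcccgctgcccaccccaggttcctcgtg
Psmb10, chr8:105938343-105938642, minus strand: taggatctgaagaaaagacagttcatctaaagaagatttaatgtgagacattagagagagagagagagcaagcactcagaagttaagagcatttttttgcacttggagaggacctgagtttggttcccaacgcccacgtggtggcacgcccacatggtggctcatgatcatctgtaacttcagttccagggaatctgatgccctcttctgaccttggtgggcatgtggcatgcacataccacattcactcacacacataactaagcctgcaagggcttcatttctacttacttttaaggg
Psme2, chr14:55591052-55591351, minus strand: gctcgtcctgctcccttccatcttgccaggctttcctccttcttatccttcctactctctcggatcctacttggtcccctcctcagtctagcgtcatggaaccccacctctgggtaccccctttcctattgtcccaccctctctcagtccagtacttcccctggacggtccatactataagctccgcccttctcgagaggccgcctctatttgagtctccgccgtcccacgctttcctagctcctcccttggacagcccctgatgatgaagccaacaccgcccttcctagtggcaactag
The Psme1 window held the element 9 bases after the start, and the other windows did not hold these letters. Promoters were found for 39 of the 47 members. The element occurred in 5 of them (Psmb3, Psmd4, Psmd9, Psme1 and Psmg4; 12.8%), beside 3.44% of 32851 promoters in all. The STAT letters TTCNNNGAA occurred in 2 (5.13%, beside 8.3% of all), the NF-kB letters (GGG, any 5 bases and CC) in 23 (59%, beside 50.8%) and the antioxidant response element core TGACNNNGC in 6 (15.4%, beside 12.4%). Those 6 were Psmb5, Psmb6, Psmc6, Psmd9, Psmd12 and Psme4. The motifs were counted separately and on both strands, so 1 stretch could count under more than 1 of them. A match is a run of letters and not evidence of binding.

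Psme2 and Psme2b have coding sequences of 717 bases that differ at 5 positions (99.3% identical), with a longest identical stretch of 311 bases. Most sequencing reads from either transcript would therefore fit both. Coding bases 424 to 543 hold 3 of the differences, in capitals, Psme2 being on chromosome 14 and Psme2b on chromosome 11.
Psme2: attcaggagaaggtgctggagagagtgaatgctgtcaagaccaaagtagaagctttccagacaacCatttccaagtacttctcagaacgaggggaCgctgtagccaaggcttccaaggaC
Psme2b: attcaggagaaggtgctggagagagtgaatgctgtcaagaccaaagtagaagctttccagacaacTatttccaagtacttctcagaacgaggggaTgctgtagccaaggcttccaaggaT
Between 90.8% and 99.6% of the mRNA reads of the pair were assigned to Psme2b. Psme2 had 490 and 364 reads with LPS, against 10 and 117 in untreated cells, and Psme2b had 12846 and 11111 with LPS, against 2662 and 1149. The untreated libraries disagreed on Psme2 by more than 10 to 1 and on Psme2b in the other direction. The share on Psme2b was 99.6% in untreated library A (exact 95% binomial interval 99.3 to 99.8) and 90.8% in untreated library B (89.0 to 92.3), and these intervals cover counting error only. Psme2b also overlaps 9930111J21Rik1 and Gm12185 on its own strand. Added together, the pair had 13741 and 16073 normalised reads with LPS and 1767 and 1571 in untreated cells, a log2 difference of 3.16 between group means. The separate fits gave 3.93 ± 1.17 for Psme2 (adjusted p = 0.038) and 3.18 ± 0.21 for Psme2b (adjusted p = 0.00016). The Psme2 call was lost without LPS library A (adjusted p = 0.097), without LPS library B (adjusted p = 0.13) and with total-read scaling (adjusted p = 0.052), and without an untreated library its log2 change ran from 1.80 to 6.06.

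**Figure D3:**
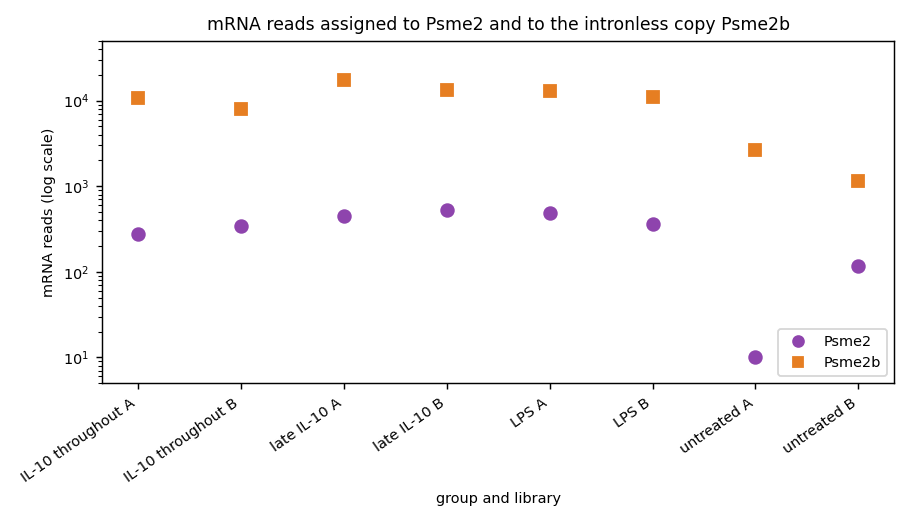
mRNA reads per library assigned to Psme2 (circles) and to its intronless copy Psme2b (squares), on a log scale, for IL-10 throughout, late IL-10, LPS and untreated cells. Psme2b takes the larger count in all 8 libraries, and Psme2 has 10 reads in untreated library A.

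Among the catalytic constitutive subunits, Psmb6, which carries the caspase-like activity, changed most. It had 5482 and 5870 normalised mRNA reads with LPS, against 1673 and 2238 in untreated cells, a log2 change of 1.55 ± 0.19 (adjusted p = 0.0015). This call held without any 1 library and under total-read scaling (0.80, adjusted p = 0.018). In pre-mRNA, Psmb6 had 325.5 and 529 reads with LPS against 98.0 and 178 in untreated cells (1.64 ± 0.38, adjusted p = 0.01). This pre-mRNA call was lost when untreated library A was left out (1.22, adjusted p = 0.064) and with total-read scaling (0.73, adjusted p = 0.28). Psmb7, of the trypsin-like activity, had 1301 and 1517 mRNA reads with LPS and 771 and 899 in untreated cells. Its log2 change of 0.76 ± 0.23 (adjusted p = 0.041) was lost whichever library was left out (adjusted p of 0.081 to 0.20) and vanished with total-read scaling (0.007). Psmb7 pre-mRNA stood at 4814 and 3170 reads with LPS and at 2586 and 2097 in untreated cells, and did not pass the threshold (0.75 ± 0.30, adjusted p = 0.076). Psmb5, of the chymotrypsin-like activity, had 827 and 409 mRNA reads with LPS and 244 and 339 in untreated cells (1.01 ± 0.50, adjusted p = 0.16). Its pre-mRNA groups overlapped, with 67.0 and 151 reads with LPS and 76.2 and 93.3 in untreated cells (0.25 ± 0.48, adjusted p = 0.69). Thus each of the 3 catalytic genes lay higher in both LPS mRNA libraries, with Psmb5 not past the threshold. Of all 7 constitutive beta genes, 5 rose in mRNA (Psmb2, Psmb3, Psmb4, Psmb6 and Psmb7) and 4 in pre-mRNA, with medians of 0.88 and 0.87. Psmb1, a non-catalytic subunit, had changes of 0.17 in mRNA and 0.63 in pre-mRNA, not past the threshold.

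In the alpha ring 5 of 7 genes rose in mRNA (median 1.22) and 6 of 7 in pre-mRNA (median 1.36). Psma6 had the largest mRNA change of the ring, with 5040 and 5043 normalised reads with LPS against 1232 and 1321 in untreated cells. The libraries of a group were close together for this gene, and the log2 change was 1.98 ± 0.22 (adjusted p = 0.001). Psma6 pre-mRNA had 3720 and 3520 reads with LPS against 919 and 831 in untreated cells (2.05 ± 0.26, adjusted p = 0.00086). Psma5 led in pre-mRNA, with 3245 and 2401 reads with LPS against 643.5 and 507 in untreated cells (2.29 ± 0.36, adjusted p = 0.002). Its mRNA was much sparser, at 273 and 499 reads with LPS and 147 and 110.5 in untreated cells. That change of 1.53 ± 0.38 (adjusted p = 0.021) did not pass when LPS library B (1.09, adjusted p = 0.12), untreated library A (1.73, adjusted p = 0.056) or untreated library B (1.32, adjusted p = 0.1) was left out. Psma3, whose tail helps close the gate, rose by 1.51 in mRNA and 1.97 in pre-mRNA; its mRNA call was lost when untreated library A (adjusted p = 0.083), untreated library B (adjusted p = 0.089) or LPS library B (adjusted p = 0.13) was left out. Psma4 rose by 1.20 and 1.06 (0.45 and 0.15 with total-read scaling, limma adjusted p = 0.21 and 0.68). Psma2 rose by 1.22 and 1.36 (0.47 and 0.45 with total-read scaling, limma adjusted p = 0.22 and 0.17). It overlaps AW209491 on the same strand, which has a row of its own (224 mean normalised mRNA reads with LPS and 323 in untreated cells). The sources used here do not say which of the genes took the shared reads. Psma7 rose in pre-mRNA (0.69), a change that took the other sign with total-read scaling (-0.22), and had 0.50 in mRNA, not past the threshold. Psma1 passed in neither measure (0.12 and 0.26).

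In the regulatory particle 1 of 6 ATPase genes rose in mRNA and 3 of 6 in pre-mRNA, and of the non-ATPase genes 5 of 11 and 8 of 11 did; the classes were not tested against each other. The ATPase called in mRNA was Psmc4 (0.72 ± 0.18, adjusted p = 0.021; -0.0238 with total-read scaling), and those called in pre-mRNA were Psmc2 (1.19), Psmc5 (1.18) and Psmc6 (0.96). The Psmc2 call held whichever library was left out. The Psmc5 call held only without untreated library B (without LPS library B its adjusted p was 0.05), and the Psmc6 call only without untreated library A. With total-read scaling the pre-mRNA changes were 0.27 for Psmc2, 0.26 for Psmc5 and 0.0438 for Psmc6, with adjusted p of 0.43 to 0.9. All 6 ATPases had changes above 0 in both measures, from 0.20 to 0.91 in mRNA; with total-read scaling Psmc1, Psmc3 and Psmc4 were below 0 in both measures and Psmc2 in mRNA. Of the non-ATPase genes, Psmd11 had the largest mRNA change at 1.32 ± 0.22 (adjusted p = 0.0049), with 1.54 in pre-mRNA. Psmd14, the deubiquitinase that strips ubiquitin from substrates, rose by 1.16 in mRNA and 1.85 in pre-mRNA. Its mRNA call was lost without untreated library A (adjusted p = 0.062), untreated library B (0.051) or LPS library B (0.086) and with total-read scaling (0.41, adjusted p = 0.14), and its pre-mRNA call without untreated library B (1.45, adjusted p = 0.11) or LPS library A (1.28, adjusted p = 0.087). Psmd7, its partner in the lid, rose by 1.27 and 1.17 (0.52 and 0.25 with total-read scaling, limma adjusted p = 0.11 and 0.54). The ubiquitin receptor Psmd4 rose in pre-mRNA (0.65, but -0.26 with total-read scaling), with 0.51 in mRNA, and Psmd2, a large scaffold subunit, passed in neither (0.39 and 0.20). In all, 16 of 31 constitutive core and regulatory subunits rose in mRNA and 21 in pre-mRNA, with medians of 0.76 and 0.93, and all 31 had a change above 0 in both relative to the median gene. With total-read scaling 18 of the 31 were above 0 in mRNA and 16 in pre-mRNA, with medians of 0.0142 and 0.0123. Over the whole membership, 17 of 46 genes rose in both measures (37%), where 15.4% of all genes tested in both did. The 17 are 77.3% of the members called in mRNA and 68% of those called in pre-mRNA, close to the 78.2% and 69% found over all genes. The 2 measures come from the same RNA, so this overlap is not a repeat of the experiment.

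Assembly factors did not move as a block. Psmd10 (gankyrin), which binds an ATPase during assembly of the regulatory particle, had 1921 and 1792 normalised mRNA reads with LPS against 521 and 580 in untreated cells. That was a log2 change of 1.75 ± 0.19 (adjusted p = 0.00087). Its pre-mRNA had 417 and 583 reads with LPS against 126 and 80.1 in untreated cells (2.29 ± 0.34, adjusted p = 0.0016), and both calls held under every alternative run. Psmd9, another chaperone of the same particle, fell in pre-mRNA, with 233 and 291.5 reads with LPS against 420 and 487 in untreated cells (-0.79 ± 0.24, adjusted p = 0.029). This call was lost without untreated library A (adjusted p = 0.067), untreated library B (0.14) or LPS library A (0.14). Its mRNA stood at 395 and 326 reads with LPS and 515 and 523 in untreated cells, not past the threshold (-0.53, adjusted p = 0.11). Psmd5 passed in neither measure (0.54 and 0.32). None of the core chaperones Psmg1 to Psmg4 was called in either measure, with changes of -0.69 to 0.11 in mRNA and -0.53 to 0.47 in pre-mRNA. With total-read scaling Psmg1 (-1.33, adjusted p = 0.047), Psmg2 (-1.43, adjusted p = 0.017) and Psmg3 (adjusted p = 0.04) fell in mRNA and Psmg2 in pre-mRNA (-1.41, adjusted p = 0.041).

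Of the other caps, Psme3, which forms a nuclear activator ring of its own, rose in mRNA (0.90 ± 0.16, adjusted p = 0.0061), with 0.61 in pre-mRNA, not past the threshold. Its mRNA change was 0.15 with total-read scaling (adjusted p = 0.59). Psme4, the single-chain activator PA200, and Psmf1, an inhibitor of the core in vitro, were called in neither measure. Psma8 fell in pre-mRNA, with 115 and 113 reads with LPS against 334 and 237.5 in untreated cells (-1.29 ± 0.34, adjusted p = 0.018). That call was lost without untreated library A (-1.05, adjusted p = 0.11) and without LPS library A (-1.31, adjusted p = 0.061). Its mRNA was sparse, at 42.2 and 50.4 reads with LPS and 77.4 and 68.3 in untreated cells (-0.64, adjusted p = 0.25). Psmc3ip, with 37.2 to 59.5 untreated mRNA reads, was not called.

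Levels can be set beside each other only per length, and only for members with no near-identical copy elsewhere in the genome. Such copies, mostly processed pseudogenes that are not in the table, exist for Psma3, Psma4, Psma5, Psmb3, Psmb5, Psmc1, Psmd2 and Psmd11, whose values are uncertain for that reason. Other genes of the table lie on the opposite strand across Psmb7 (Nek6), Psmc3 (Slc39a13), Psmc3ip (Mlx), Psmd1 (Htr2b), Psmd13 (Sirt3) and Psme1 (Emc9). The libraries were directional, but whether counting used strand is not stated, so such reads may not have been told apart. Within the beta ring the mRNA level ran from 962 (Psmb1) to 7113 (Psmb6) normalised reads per kilobase with LPS and from 719.5 (Psmb7) to 2450 (Psmb6) in untreated cells. The highest level was thus 7.39 times the lowest with LPS and 3.41 times in untreated cells, although these subunits enter the barrel in equal numbers. In the alpha ring it ran from 531 (Psma2) to 4838 (Psma6) with LPS and from 225 (Psma2) to 1672 (Psma7) in untreated cells. The ATPases kept within 622 to 1278 with LPS and 320.5 to 919 in untreated cells. Psmb10 stood at 3435 with LPS and 964 in untreated cells, and Psme1 at 2487 and 979. The core assembly chaperones ran from 104 (Psmg2) to 544 (Psmg4) with LPS and from 168 (Psmg2) to 510.5 (Psmg4) in untreated cells. By group means, Psmg4 thus lay just above Psma2 with LPS, and above Psma2 and the lowest ATPase, Psmc6, in untreated cells. With LPS the order differed between libraries. Psmg4 stood at 613 against 424 for Psma2 in LPS library A, and at 474.5 against 637 in LPS library B. These ranks, and the place of Psma2 in the alpha ring, rest on annotated transcript lengths of 555 bases for Psmg4, 2911 for Psma2 and 2234 for Psmc6. Where a gene had several protein-coding transcripts annotated as principal, the longest was taken. Before division by length, Psmg4 had 302 mean normalised mRNA reads with LPS and Psma2 had 1544. Without genes that have copies, the ranges cover 5 beta, 4 alpha and 5 ATPase genes.

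**Figure D4:**
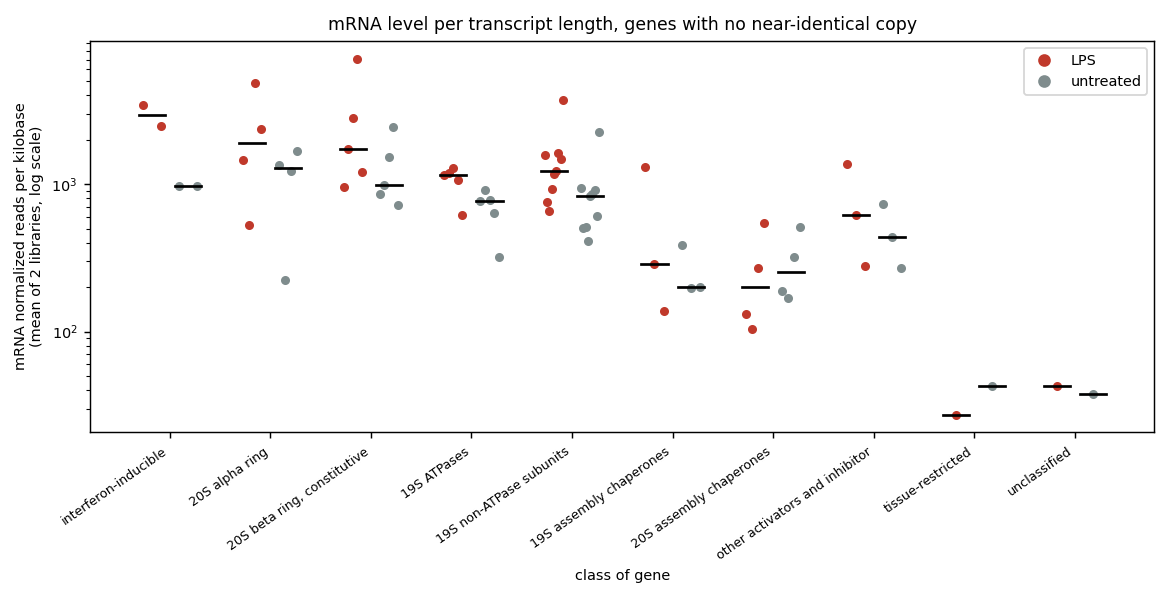
Mean mRNA level per kilobase of annotated transcript with LPS (left of each pair) and in untreated cells (right), on a log scale, for members with no near-identical copy; each point is a gene and each bar the class median. Psmb6 with LPS (7113) is the highest point, the ATPases lie close together (622 to 1278 with LPS) and Psma8 and Psmc3ip are lowest.

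IL-10 given throughout left mRNA of the proteasome genes without a call. Against LPS alone, 0 of 47 members rose and 0 fell in mRNA (limma), where 1.19% of all genes rose and 1.05% fell. Unadjusted, Psma6 and Psmg3 were higher and Psme2b lower at p under 0.05, and limma-voom also called 0. The median member changed by -0.15, beside -0.0188 over all genes. With total-read scaling these medians were 0.11 and 0.25. Both libraries lay below both LPS libraries for 14 members (21.3% of all genes) and above them for 4 (20.6%). The 3 inducible genes had changes of -0.49 (Psmb10), -0.55 (Psme1) and -0.77 (Psme2). Psmb10 mRNA stood at 3139 and 3235 normalised reads with IL-10 throughout, against 3932 and 5075 with LPS. Psme1 mRNA overlapped between the groups, with 2279 and 1446 reads with IL-10 throughout and 1997 and 3534 with LPS. In the interferon-high library of each group it had 2279 with IL-10 throughout and 3534 with LPS, and in the other 1446 and 1997. Psme2 and Psme2b together had 9955 and 8900 reads with IL-10 throughout, against 13741 and 16073 with LPS, a log2 difference of -0.66 between group means. The catalytic constitutive Psmb6 had 4296 and 4078 reads with IL-10 throughout, against 5482 and 5870 with LPS (-0.44 ± 0.19, adjusted p = 0.36).

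In pre-mRNA, 2 of 46 members fell with the same treatment (4.35%), Psmb10 and Psme1, and 0 rose, where 4.26% of all genes fell and 2.44% rose. The share that fell was thus that of the whole table, and the values of these genes are given as single genes. Psmb10 pre-mRNA stood at 205 and 189 normalised reads with IL-10 throughout, against 540.5 and 526 with LPS, and Psme1 pre-mRNA at 221 and 271 against 615 and 575. For both genes the 2 libraries of a group were close together and the groups far apart, and both remained above the untreated libraries. The log2 changes were -1.43 ± 0.33 for Psmb10 (adjusted p = 0.045) and -1.28 ± 0.30 for Psme1 (adjusted p = 0.048). Both calls lie near the threshold. Leaving out any 1 of the 4 libraries ended them, with changes of -1.49 to -1.38 for Psmb10 (adjusted p of 0.074 to 0.23) and -1.42 to -1.13 for Psme1 (adjusted p of 0.074 to 0.21), and so did total-read scaling (-0.97 and -0.82), which moves the median gene by 0.46 in this comparison. Psme2 pre-mRNA had 987 and 562 reads with IL-10 throughout, against 1718 and 1369 with LPS, without overlap but not past the threshold (-1.04 ± 0.33, adjusted p = 0.11). The summed mRNA of the interferon list moved in the same direction. It stood at 291765 and 119729 normalised reads with IL-10 throughout against 518212 and 1518439 with LPS. The dendritic cell marker sum did too (4548 and 2991, against 9483 and 17789). So did the neutrophil sum (908 and 792, against 1065 and 1275) and the macrophage sum (674604 and 647752, against 879139 and 822398). The T and NK cell and stromal sums overlapped between these groups. The part of these genes in the result was not tested. Psmb8 and Psmb9, the inducible partners outside the symbol rule, rose with LPS by 1.77 and 1.62 in mRNA and by 3.60 and 2.72 in pre-mRNA. With IL-10 throughout Psmb9 pre-mRNA fell by 1.76 (limma, adjusted p = 0.032). Psmb8 pre-mRNA, with 349 and 211 reads against 683 and 498 with LPS, was not past the threshold. Nor was the mRNA of either gene.

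No constitutive subunit was called with IL-10 throughout in either measure in the main test, which took libraries as unpaired. With total-read scaling Psma6 pre-mRNA was called. The median of the 31 was -0.14 in mRNA and -0.09 in pre-mRNA, while the pre-mRNA median of the 3 inducible genes was -1.28. With total-read scaling the median of the 31 was 0.12 in mRNA and 0.38 in pre-mRNA, with 23 and 26 of them above 0. That scaling gave -0.97 for Psmb10, -0.82 for Psme1 and -0.58 for Psme2 in pre-mRNA. Within the alpha ring the pre-mRNA changes spread widely, from -1.04 (Psma3) and -0.96 (Psma5) to 0.67 (Psma6). Psma3 had 2272 and 1487 pre-mRNA reads with IL-10 throughout, against 4719 and 3020 with LPS (adjusted p = 0.12). Psma5 had 1869 and 1101 with IL-10 throughout, against 3245 and 2401 with LPS (adjusted p = 0.16). In both, the groups did not overlap. The ATPases stayed between -0.13 and 0.21 in pre-mRNA and the non-ATPase genes between -0.46 and 0.04. Over all members, 12 of 46 were lower in both libraries than in both LPS libraries (25.6% of all genes) and 5 were higher (24.4%). The median change of the members was -0.10, beside 0.0015 over all genes. With total-read scaling these medians were 0.36 and 0.46.

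**Figure D5:**
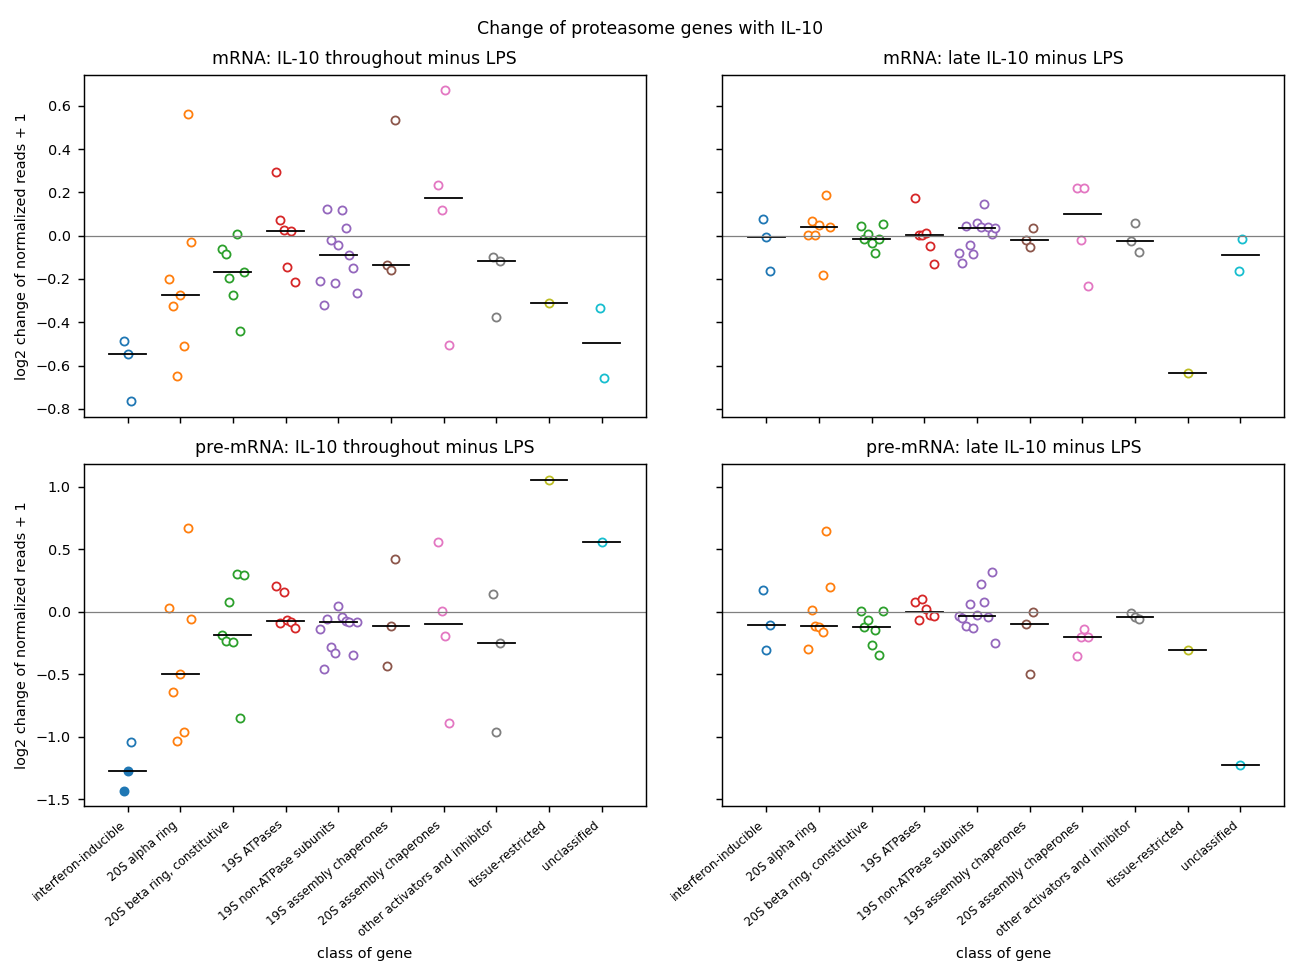
Log2 change of each member by class for IL-10 throughout minus LPS (left) and late IL-10 minus LPS (right), in mRNA (top) and pre-mRNA (bottom); filled points passed an adjusted p under 0.05 and bars are class medians. Only Psmb10 (-1.43) and Psme1 (-1.28) are filled, both in pre-mRNA with IL-10 throughout; both columns share the LPS libraries.

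Psma6 had the highest change of the alpha ring with IL-10 throughout in both measures. Its mRNA stood at 8753 and 6310 normalised reads with IL-10 throughout, at 6492 and 5063 with late IL-10, and at 5040 and 5043 with LPS. Its pre-mRNA had 6990 and 4734 reads with IL-10 throughout, 6464 and 4980 reads in the late IL-10 group, and 3720 and 3520 with LPS. All libraries of both IL-10 groups lay above both LPS libraries in both measures, 1 late IL-10 mRNA library (5063) barely so. None of these differences passed the threshold (log2 change 0.56, adjusted p = 0.31 in mRNA and 0.67, adjusted p = 0.18 in pre-mRNA for IL-10 throughout; 0.19, adjusted p = 1 and 0.65, adjusted p = 0.6 for late IL-10). With total-read scaling the pre-mRNA change with IL-10 throughout was 1.13 (adjusted p = 0.03). The gene was singled out after its values were seen.

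Late IL-10 called no member. Against LPS alone, 0 of 47 rose and 0 fell in mRNA, where 0% of all genes did either, and 0 of 46 rose and 0 fell in pre-mRNA, where 0.979% of all genes rose and 0.0629% fell. Unadjusted, no member was past p of 0.05 in mRNA and 1, Psma6, was higher in pre-mRNA, and limma-voom called 0 in both. Both late IL-10 libraries lay above both LPS libraries for 2 members in mRNA (6.18% of all genes) and 5 in pre-mRNA (13.1%), and below them for 4 (5.96%) and 6 (14.1%). Psmb10 pre-mRNA stood at 620 and 585 normalised reads with late IL-10 and at 540.5 and 526 with LPS (0.17 ± 0.33, adjusted p = 1). Psme1 pre-mRNA had 511 and 453 reads with late IL-10 and 615 and 575 with LPS (-0.30 ± 0.30, adjusted p = 1). Psme2 pre-mRNA overlapped, with 1621 and 1249 reads with late IL-10 and 1718 and 1369 with LPS. Both IL-10 comparisons use the same LPS libraries, so their values are not independent of each other.

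The 2 schedules were also compared directly. With IL-10 throughout against late IL-10, 0 of 47 members rose and 0 fell in mRNA, where 0.517% of all genes rose and 0.569% fell; unadjusted, Psme2b alone was lower, and limma-voom called 0. In pre-mRNA 1 of 46 fell (2.17%), Psmb10, and 0 rose, where 2.2% of all genes fell and 0.755% rose, so the share that fell was that of the whole table. Psmb10 had 205 and 189 normalised pre-mRNA reads with IL-10 throughout, against 620 and 585 with late IL-10, a log2 change of -1.61 ± 0.33 (adjusted p = 0.049). Leaving out any 1 of the 4 libraries ended this call, with changes of -1.67 to -1.55 (adjusted p of 0.089 to 0.32). Psme1 (-0.97, adjusted p = 0.12) and Psme2 (-0.93, adjusted p = 0.16) also lay lower in both libraries, not past the threshold. Both libraries of the longer schedule lay above both of the shorter one for 3 members in mRNA (20.5% of all genes) and 7 in pre-mRNA (26%), and below them for 16 (20.8%) and 12 (27.1%).

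No label ties a library of one group to a library of another, so the tests above took the libraries as unpaired. The 2 libraries of a group nevertheless differed in partly the same genes, more so between LPS-treated groups than between these and untreated cells. Over genes other than the members (11366 in mRNA and 11083 in pre-mRNA), the difference between the libraries correlated across genes at 0.569 to 0.844 between LPS-treated groups and at 0.328 to 0.378 between LPS-treated and untreated cells, once libraries were matched by the sign of that correlation. That matching makes each correlation with the LPS group positive whatever the data, so only its size carries information. A further fit took these matched libraries as pairs. It was chosen after seeing the data, and the pairs come from the values and not from the design. The pairing was picked so that library differences correlate, which can lower the spread left in the fit. The adjusted p-values of this fit are therefore not those of a design with known pairs. The fit made more calls over the whole table. With LPS, 35 of 47 members rose and 1 fell in mRNA (31.8% and 28.6% of all genes), and 32 of 46 rose and 2 fell in pre-mRNA (32.7% and 30.2%). Psmb5 mRNA was then past the threshold (adjusted p = 0.0031). For IL-10 throughout against LPS, 0 rose and 1 fell in mRNA (6% and 9.27% of all genes), the copy Psme2b, while Psme1 mRNA stayed without a call (adjusted p = 0.32). In pre-mRNA 2 rose and 10 fell there (9.66% and 15.5% of all genes). The 10 included all 3 inducible genes and the alpha genes Psma2, Psma3, Psma4 and Psma5, and the 2 were Psma6 and Psma8. For late IL-10 against LPS, 0 of 47 members rose and 0 fell in mRNA (0.0526% and 0% of all genes), and 0 of 46 did either in pre-mRNA (3% and 1.29%). For IL-10 throughout against late IL-10, 0 rose and 1 fell in mRNA (5.15% and 8.53% of all genes), and 1 rose and 9 fell in pre-mRNA (9.23% and 14.6%).

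The change in pre-mRNA was set against the change in mRNA of the same gene in 1 fit, which treats the measures as independent although both come from the same RNA. For LPS against untreated, 0 of 46 members differed (1.24% of all genes did). Psme1 was the only member past an unadjusted p of 0.05, its pre-mRNA change exceeding its mRNA change by 1.61 ± 0.53 (adjusted p = 0.22). For IL-10 throughout against LPS, 0 of 46 differed (0.0629% of all genes did), with Psma8 past the unadjusted p (1.37 ± 0.52, adjusted p = 1). A difference between the measures was thus not shown for any member.

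Genes that work with the proteasome but bear other names were taken from a list of 35, of which 34 were in the table. With LPS, 15 of the 34 rose and 3 fell in mRNA, where 19.2% of all genes rose and 16.5% fell. In pre-mRNA 18 of 33 rose and 2 fell, where 22.3% of all genes rose and 21.7% fell. Nfe2l1, the transcription factor known to raise proteasome genes when proteasome activity is short, rose by 1.66 in mRNA (adjusted p = 0.0019) and 1.77 in pre-mRNA. Nfe2l2, which answers oxidative stress, rose by 0.96 in mRNA (limma, adjusted p = 0.016). Nfe2l2 pre-mRNA was not past the threshold, with 20193 and 15017 normalised reads with LPS against 8728 and 9693 in untreated cells. The ubiquitin receptor Adrm1 rose by 0.96 and 1.20, and the core assembly factor Pomp rose in pre-mRNA (1.07, adjusted p = 0.011). Of the genes that fell, Zfand2a, an arsenite-inducible protein that associates with the proteasome, fell by 1.88 in mRNA (adjusted p = 0.018), and its pre-mRNA fell by 2.69 (adjusted p = 0.0025). Ddi2, the protease that activates Nfe2l1, fell by 1.65 in mRNA (adjusted p = 0.018), and its pre-mRNA fell by 1.89 (adjusted p = 0.0025). Uchl5, a deubiquitinase bound to Adrm1, fell by 0.89 in mRNA (adjusted p = 0.048). The interferon-responsive factor Irf1 rose by 4.31 in mRNA (adjusted p = 0.00038). With IL-10 throughout, Irf1 pre-mRNA fell by 2.19 (adjusted p = 0.0094), and Stat3, the factor that IL-10 receptors activate, rose in mRNA by 1.74 (adjusted p = 0.013). With late IL-10, Stat3 pre-mRNA rose by 2.12 (limma, adjusted p = 0.028) and no other listed gene was called. Changes of the listed genes with 1 library left out or with total-read scaling are not given here. With LPS that scaling moves the median gene by -0.75 in mRNA and -0.92 in pre-mRNA.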

How the data were processed

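The authors deposited 1 table of 11415 genes with 8 columns of normalised reads, a mean per group for mRNA and for pre-mRNA. Trim Galore, DESeq and, as genome build, mm10 are named in the submitters' processing notes. The aligner, read counter, use of strand, annotation and handling of pre-mRNA reads were not given in the sources used here. Each deposited value broke down into whole multiples of 2 constants, with 1 solution for 100% of values (largest relative error 5.1e-15), which returned both libraries' reads. All p-values rest on this step and on the spread between the 2 libraries of a group, which no label ties to a pool. The smallest LPS mRNA count is 11, so genes with fewer LPS reads are not seen.

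The columns are scaled means, from which both libraries' reads were worked out. The main test took log2(normalised reads + 1) of genes with a mean of at least 1 in limma-trend (limma 3.58.1, R 4.3.3). It had all 8 libraries of a measure in 1 fit, group as the only term, Benjamini-Hochberg adjustment over all genes and a threshold of 0.05. The recovered counts themselves entered limma-voom. The procedure was tested on simulated data. Copies were sought with blastn 2.17.0 (at least 95% identity over 200 bases) in GENCODE M21 transcripts. Alternatives were pseudocounts of 0.5 and 5, no filter, a mean of at least 10, total-read scaling, limma-voom, a fit of only the 2 groups compared, leaving out each library and, chosen after seeing the data, leaving out Psmc3ip, Psma8 and Psme2b, and libraries matched across groups by their values with the pair as a block. The members and lists were chosen with earlier results of these data known. Library values are given for the inducible and catalytic genes and for up to 5 members with the largest rises and falls past the threshold per comparison. One gene of the list of related genes is not reported here.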

Additional observations from a re-analysis of the deposited data

Results flagged for a closer look

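The effect of IL-10 on Psmb10 pre-mRNA differed between the 2 schedules by a test of the difference itself. Relative to LPS, IL-10 throughout gave a log2 change of -1.43 and late IL-10 one of 0.17, and the difference was -1.61 (limma, adjusted p = 0.049; lower in 2 of 2 libraries than in both late IL-10 libraries). The IL-10 dose of the late schedule is not restated in the labels, so dose and duration cannot be told apart. The adjusted p ran from 0.0096 to 0.32 over 12 alternatives and passed the threshold in 4. It was 1 of 46 members (2.17%), where 2.2% of all genes fell in that comparison.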

How the results depend on the processing

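The columns carry no replicate number, so pairs could be made only from the values. With libraries matched by their values and the pair as a replicate block, chosen after seeing the data, members rising with LPS in mRNA numbered 35 in place of 22 and members falling 1 in place of 0. For IL-10 throughout against LPS the falling count was 1 in mRNA and 10 in pre-mRNA and the rising count 2 in pre-mRNA, and against late IL-10 they were 1, 9 and 1. For LPS against untreated, members rising in mRNA (22) numbered 6 with total-read scaling and 9 to 16 with 1 library left out, and members falling (0) numbered 6 with total-read scaling. In pre-mRNA the rising count (25) was 9 with total-read scaling, 16 with only the 2 groups fitted and 14 to 17 with 1 library left out. The falling count (2) was 1 with only the 2 groups, 1 without Psmc3ip, Psma8 and Psme2b, and 0 to 2 with 1 library left out. For IL-10 throughout against LPS in pre-mRNA, the falling count (2) was 0 with no filter, with total-read scaling, with only the 2 groups and with any 1 library left out, and the rising count (0) was 1 (Psma6) with total-read scaling. For IL-10 throughout against late IL-10 in pre-mRNA, the falling count (1) was 0 with a pseudocount of 0.5, no filter, total-read scaling, only the 2 groups or any 1 library left out. The count of members whose pre-mRNA and mRNA changes with LPS differed (0) was 1 with no filter. Total-read scaling turned the sign of 8 calls with LPS, to -0.0238 (Psmc4) and -0.0071 (Psmd1) in mRNA and to -0.22 (Psma7), -0.0464 (Psmb3), -0.11 (Psmd1), -0.31 (Psmd12), -0.25 (Psmd3) and -0.26 (Psmd4) in pre-mRNA; here the scaling itself moves every gene. The cause of the other changes was not tested beyond the fewer libraries in a fit. Of 1040 single-gene values with 1 library left out, 943 stayed on their side of the threshold, 95 lost it and 2 gained it, and under the other settings 1984 of 2080 stayed, 52 lost it, 36 gained it and 8 reversed. These counts of single-gene values do not cover every member in every comparison. Sparse genes are the least certain: Psme2 mRNA had 10 reads in 1 untreated library.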

Other observations

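Psma6, which lay above LPS in both libraries of both IL-10 groups, has Nfkbia, the gene of an inhibitor of NF-kB, 70955 bases away on chromosome 12. Nfkbia rose with LPS by 4.46 in mRNA (adjusted p = 2.5e-05) and by 4.16 in pre-mRNA (adjusted p = 3.6e-05). Whether the genes share any control was not tested.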
